A study of Mus musculus with 24 samples.

Results

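The miR-125 and miR-99/100 families were examined in plasma of mice that had inhaled particles bearing environmentally persistent free radicals (EPFR). All mouse miRNA probes of the deposited count table named miR-99a, miR-99b, miR-100, miR-125a or miR-125b were taken, whichever arm of the hairpin they read, which gave 7 probes, 1.24% of the mouse miRNA probes and 7 of the 626 probes in the table with controls and viral miRNA included. These were mmu-miR-125b-5p, mmu-miR-125a-5p, mmu-miR-125b-3p, mmu-miR-125a-3p, mmu-miR-99a, mmu-miR-99b and mmu-miR-100, written below without the species prefix. The probes were taken by name and not by their values, but the families were chosen with earlier results of these data known.

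Plasma came from 24 male C57BL/6J mice of 20 weeks, an inbred laboratory strain, with 8 mice in each group. One group inhaled EPFR particles at 250 µg/m3, and another inhaled EPFR lo particles, which carry fewer radicals per gram, at the same mass concentration. The third group breathed filtered air, and no mouse among the 24 received particles free of radicals. Mass and age are those of the sample labels, and the study's methods give a slightly higher mass and a wider span of ages. Exposure lasted 4 h per day for 5 days, and the sources describe the RNA both as plasma RNA and as exosomal RNA from plasma.

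Both families are among the oldest known miRNA. miR-125 is the mammalian counterpart of lin-4, the first miRNA found in Caenorhabditis elegans, and miR-99 and miR-100 descend from the ancient miR-100 family. Mammals keep these genes in clusters with a let-7 gene that can be transcribed as 1 precursor, after which each hairpin is cut out and processed on its own. miR-125b is known for repressing Lin28 and for its roles in blood stem cells and muscle, and human miR-99 and miR-100 are known to repress MTOR. In plasma, miRNA are carried in vesicles, in protein complexes and in blood cells that escape removal or break during sampling.

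The mature sequences, from RefSeq on GRCm38.p6, are shown because a shared seed, bases 2 to 8 and here in capitals, defines each family, and because the probes of a family have to tell apart nearly identical strands. They were matched by name for 6 of the 7 members and for 7 of 7 listed relatives, and names without an arm were taken as the 5p strand.
miR-125b-5p: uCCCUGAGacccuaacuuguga
miR-125a-5p: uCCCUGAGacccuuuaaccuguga
miR-351: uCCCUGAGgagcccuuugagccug
miR-670: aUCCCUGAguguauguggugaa
miR-99a: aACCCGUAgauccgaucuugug
miR-100: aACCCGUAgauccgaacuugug
miR-99b: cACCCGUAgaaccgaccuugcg
miR-10a: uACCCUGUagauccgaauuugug
let-7c: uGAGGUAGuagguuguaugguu
let-7e: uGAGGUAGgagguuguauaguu

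miR-125b-5p, miR-125a-5p and miR-351 share the seed CCCUGAG. The first 13 bases of miR-125a-5p and miR-125b-5p are identical, and miR-125a-5p is longer, at 24 bases against 22. miR-670 carries the neighbouring seed UCCCUGA. miR-99a, miR-99b and miR-100 share ACCCGUA, and miR-100 differs from miR-99a by 1 base, A16U, counted from the 5′ end with the base of miR-100 first. miR-10a and miR-10b share ACCCUGU, which begins with the same ACCC as the seed of miR-99a and then departs from it. No source used here states whether a probe also reads a close relative.

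The members lie in 3 clusters. On chromosome 9, Mir100, Mirlet7a-2 and Mir125b-1 span 50578 bases (chr9:41531425-41582002) inside the long noncoding RNA gene Mir100hg. On chromosome 16, Mir99a, Mirlet7c-1 and Mir125b-2 span 47408 bases (chr16:77598936-77646343). On chromosome 17, Mir99b, Mirlet7e and Mir125a fit within 692 bases (chr17:17830188-17830879). miR-125b-5p is encoded on both chromosome 9 (chr9:41581940-41581961, plus strand) and chromosome 16 (chr16:77646279-77646300, plus strand), so its count cannot be assigned to 1 cluster. let-7c likewise has a further gene on chromosome 15, whereas miR-99a, miR-99b, miR-100, miR-125a and let-7e each have 1 gene in this annotation.

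Each mouse gave 8418 to 30483 counts over all mouse miRNA, which leaves most of these probes near background. In 3 mice, 2 after EPFR lo and 1 after filtered air, the 4 housekeeping mRNA used for scaling were no higher than the negative controls. With EPFR lo mouse 1, 4 mice had the highest scaling factor, 1.66, the value that housekeeping mRNA at the floor of 1 gives. Ligation controls, synthetic RNA that report how well the assay tagged its input, had medians of 5442 counts in EPFR, 4457 in EPFR lo and 2172 in filtered air, so they too stood higher in the particle groups. Red blood cell miRNA, 6 of 7 above background, had summed scaled counts of 1632 to 12278 in EPFR (median 7215), 3281 to 10447 in EPFR lo (median 6105) and 971 to 8192 in filtered air (median 2457). Platelet and leukocyte miRNA, 5 of 6 above background, had medians of 448 in EPFR, 431 in EPFR lo and 273 in filtered air. Both lists thus stood higher in the particle groups, as miR-125b-5p did, and their part in its difference was not tested. Liver miRNA, 0 of 3 above background, had medians of 49.6 in EPFR, 82.6 in EPFR lo and 53.2 in filtered air. Endothelium miRNA, 1 of 2 above background, had medians of 53.8 in EPFR, 83.9 in EPFR lo and 73.0 in filtered air. These 2 lists were therefore lower in EPFR and higher in EPFR lo than in filtered air. Mice numbered 1 to 4 and 5 to 8 stand in separate blocks of the count table, with positive controls averaging 1278 ± 99.9 and 1533 ± 133 counts (SD, n = 12 each); the sources speak of several assay batches but do not say which mice shared one. Each mouse is a separate animal.

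miR-125b-5p was the only one of the 7 members above background. The background limit, the mean plus 2 SD of the 8 negative probes over all mice, was 34.1 counts, and 41 mouse miRNA exceeded it on average. miR-125b-5p averaged 55.9 counts, the 24th highest mean of all mouse probes, and passed the mouse's own limit in 14 of 24 mice. miR-125a-5p averaged 28.8 counts and passed in 6 of 24 mice. The remaining 5 members averaged 11.2 to 15.6 counts, inside the range of the individual negative probes, whose means reached 29.0, and none of their 120 values, which ran from 4 to 30 counts, passed the limit of its mouse. For miR-125b-3p, miR-125a-3p, miR-99a, miR-99b and miR-100, a level in plasma was therefore not detectable at this depth. Probes differ in efficiency, so the order of these counts is not an order of abundance.

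**Figure D1:**
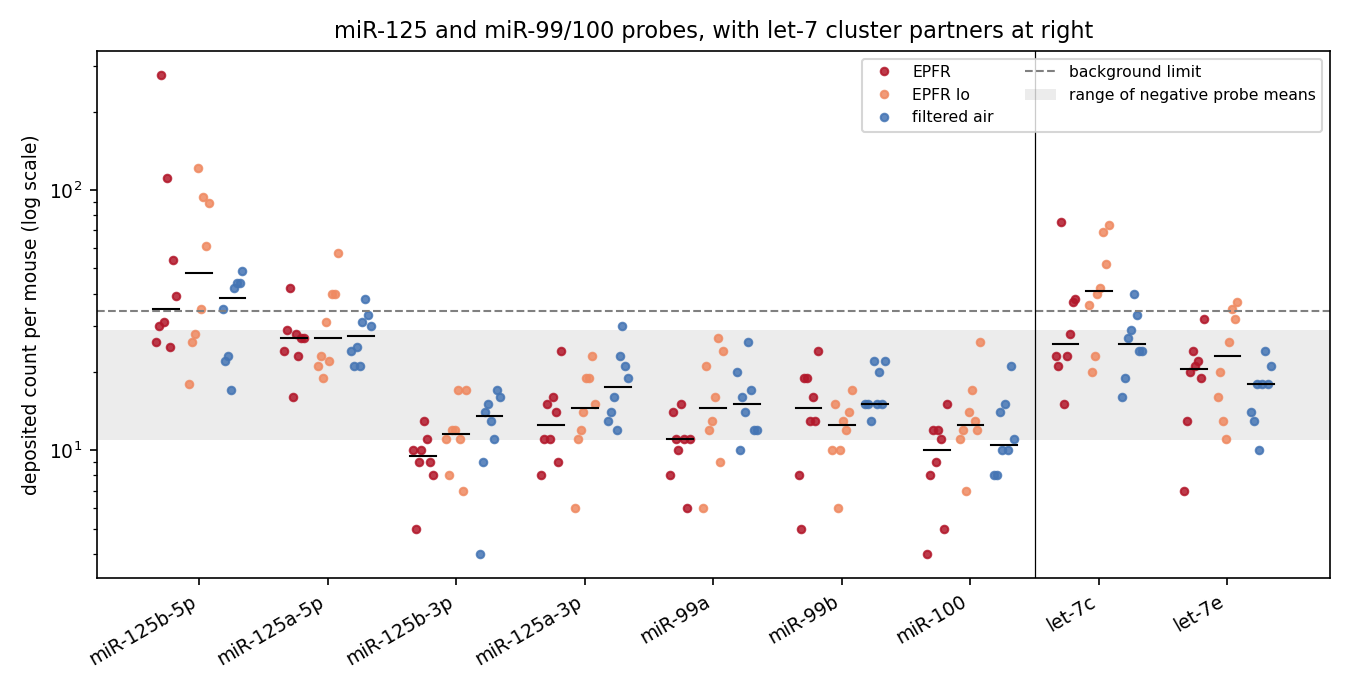
Deposited count of each mouse on a log axis for the 7 members and, right of the line, let-7c and let-7e; points are mice, short black lines group medians, the dashed line the background limit of 34.1 counts and the grey band the range of negative probe means. Of the members only miR-125b-5p averages above the limit, led by 1 EPFR mouse at 277 counts and 1 EPFR lo mouse at 121 counts. The partner let-7c also averages above it, at 34.5 counts.

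miR-125b-5p ranged from 25 to 277 counts in EPFR mice, with a median of 35, and the 8 values were 26, 30, 277, 31, 111, 25, 54 and 39 for mice 1 to 8. In EPFR lo mice it read 18, 26, 28, 121, 35, 94, 61 and 89 counts, with a median of 48. In filtered air mice it read 35, 22, 23, 17, 42, 44, 44 and 49 counts, with a median of 38.5. The highest values belonged to particle-exposed mice, with 3 of 8 EPFR mice and 4 of 8 EPFR lo mice above every filtered air mouse, while the rest lay inside the filtered air range. The median count of EPFR was the lowest of the 3, but scaling to housekeeping mRNA changed the order. The scaled medians were 47.7 in EPFR, 47.2 in EPFR lo and 36.2 in filtered air.

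On that scale miR-125b-5p averaged 78.7 ± 92.1 in EPFR, 65.4 ± 56.5 in EPFR lo and 34.4 ± 12.6 in filtered air (SD, n = 8 each). In edgeR's quasi-likelihood test over all mouse miRNA, the log2 fold change of EPFR against filtered air was 1.20 (SE 0.36), with a Benjamini-Hochberg adjusted p of 0.0868. For EPFR lo against filtered air the edgeR log2 fold change was 0.92 (SE 0.36), with an adjusted p of 0.420. For EPFR against EPFR lo it was 0.28 (SE 0.35), with an edgeR adjusted p of 0.955. None of these passed an adjusted p of 0.05. The two-sided exact permutation test, which weighs each mouse equally on the log2 scale, gave a difference of 0.74 (SE 0.46, p = 0.125) for EPFR and of 0.70 (SE 0.37, p = 0.0646) for EPFR lo, over 12870 splits with a smallest possible p of 0.000155. Both particle groups were compared with the same filtered air mice.

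A single mouse carried much of each difference. Without EPFR mouse 3, the scaled mean of EPFR was 47.0 ± 21.8 (SD, n = 7), the log2 fold change against filtered air was 0.45 (edgeR adjusted p = 0.994), and that against EPFR lo turned to -0.47 (edgeR adjusted p = 0.941). Without EPFR lo mouse 4, the scaled mean of EPFR lo was 46.0 ± 15.3 (SD, n = 7) and the log2 fold change 0.44 (edgeR adjusted p = 0.997). Leaving out a low EPFR mouse or a high filtered air mouse did the opposite, and the EPFR difference passed without EPFR mouse 1 (log2 fold change 1.35, edgeR adjusted p = 0.0138), EPFR mouse 2 (1.32, edgeR adjusted p = 0.0281), filtered air mouse 6 (1.25, edgeR adjusted p = 0.0452) or filtered air mouse 8 (1.30, edgeR adjusted p = 0.0450).

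In EPFR mouse 3, miR-125b-5p was not high alone. At 277 counts against a median of 31 in the other 7 EPFR mice, it stood 8.94-fold higher, the second largest excess of all mouse probes. The largest was that of miR-1, a striated muscle miRNA, at 387 counts against 27, and miR-133a, another muscle miRNA, followed at 101 against 12. The muscle list (miR-1, miR-133a, miR-133b and miR-206, of which 1 of 4 was above background and none was at 0 in all mice of a group) summed to 561 scaled counts in that mouse. Its range was 27.5 to 561 in EPFR with a median of 85.9, 61.1 to 154 in EPFR lo with a median of 90.6, and 27.1 to 95.5 in filtered air with a median of 66.1. The red blood cell sum of EPFR mouse 3, 12278, was also the highest of its group. The part of these miRNA in the miR-125b-5p result was not tested. In the same mouse the seed partner miR-125a-5p read 42 counts against a median of 27, and miR-125b-3p read 9 against 10.

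EPFR lo mouse 4 was also high in other miRNA after scaling. In its deposited counts miR-125b-5p read 121 counts against a median of 35 in the other 7 EPFR lo mice, a 3.46-fold excess and the second largest of that mouse, while miR-1 read 46 against 40 and let-7c read 40 against 42. This mouse is 1 of the 3 whose housekeeping mRNA lay at background, and its scaled count of 200.6 rests on that factor. Its scaled sums were the highest of EPFR lo for red blood cells (10447), striated muscle (154), liver (204, 0 of 3 markers above background) and endothelium (181, 1 of 2 above background), and their part in the miR-125b-5p value was not tested. Without those 3 mice the log2 fold change of miR-125b-5p in EPFR lo was 0.46 (edgeR adjusted p = 0.998).

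The 2 blocks of mice gave different sizes. Among mice 1 to 4 of each group, the log2 fold change of miR-125b-5p was 2.04 in EPFR (edgeR adjusted p = 0.109) and 1.63 in EPFR lo (edgeR adjusted p = 0.266). Among mice 5 to 8 it was 0.39 in EPFR (edgeR adjusted p = 0.998) and 0.32 in EPFR lo (edgeR adjusted p = 0.762). Filtered air mice 1 to 4 read 17 to 35 counts and filtered air mice 5 to 8 read 42 to 49, with no overlap, while EPFR mice 1 to 4 and 5 to 8 overlapped (26 to 277 and 25 to 111). The change in EPFR was smaller by 1.66 on the log2 scale (SE 0.67) in mice 5 to 8, which did not pass as an interaction term (edgeR adjusted p = 1.00).

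The other members showed smaller differences, none past the threshold. Of the 7 members, edgeR called 0 at an adjusted p under 0.05 in EPFR against filtered air, where 0.707% of all miRNA were called (4 miRNA). In that comparison DESeq2 also called 0 of 7, with 0.707% of all miRNA called, and limma 0 of 7, with 0.353% called. By edgeR 1 of 7 had an unadjusted p under 0.05, against 5.12% of all miRNA. In EPFR lo against filtered air 0 of 7 were called, with 0.707% of all miRNA called, and 1 of 7 had an unadjusted p under 0.05, against 4.59%. In EPFR against EPFR lo 0 of 7 were called, with 0.177% of all miRNA called, and 0 of 7 had an unadjusted p under 0.05, against 2.47%. The 1 member with an unadjusted p under 0.05 was miR-125b-5p in both cases. The median log2 fold change of the 7 members was -0.21 in EPFR and 0.11 in EPFR lo, beside -0.09 and 0.11 for all miRNA. For the 41 miRNA above background it was 0.59 and 0.60.

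miR-125a-5p, which has the same seed as miR-125b-5p but a single gene on chromosome 17, stayed closer to background. It read 16 to 42 counts in EPFR (median 27), 19 to 57 in EPFR lo (median 27) and 21 to 38 in filtered air (median 27.5). The medians were close, and 3 of 8 EPFR lo mice and 1 of 8 EPFR mice lay above every filtered air mouse, with 1 of each below. The edgeR log2 fold change was 0.07 (SE 0.31, adjusted p = 0.991) in EPFR and 0.26 (SE 0.31, adjusted p = 1.00) in EPFR lo. The ratio of miR-125b-5p to miR-125a-5p within each mouse, which does not depend on the scaling factor, averaged 0.91 ± 0.96 log2 units in EPFR, 0.69 ± 0.65 in EPFR lo and 0.24 ± 0.33 in filtered air (SD, n = 8 each). The difference from filtered air was 0.68 (SE 0.36) in EPFR (exact permutation p = 0.0752, adjusted over the 15 ratio tests 0.188) and 0.45 (SE 0.26) in EPFR lo (exact permutation p = 0.0987, adjusted 0.211).

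The miR-99/100 family stayed within background throughout. miR-99a read 6 to 15 counts in EPFR (median 11), 6 to 27 in EPFR lo (median 14.5) and 10 to 26 in filtered air (median 15), and its edgeR log2 fold change was -0.44 (SE 0.33) in EPFR and 0.11 (SE 0.32) in EPFR lo. miR-99b read 5 to 24 counts in EPFR (median 14.5), 6 to 17 in EPFR lo (median 12.5) and 13 to 22 in filtered air (median 15), with -0.07 (SE 0.32) in EPFR and -0.39 (SE 0.33) in EPFR lo. miR-100 read 4 to 15 counts in EPFR (median 10), 7 to 26 in EPFR lo (median 12.5) and 8 to 21 in filtered air (median 10.5), with -0.21 (SE 0.34) in EPFR and 0.32 (SE 0.33) in EPFR lo. All groups overlapped for all 3, and their signs were not shared between the particle groups, except for miR-99b.

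The 3p strands, usually the less stable arm of these hairpins, were as low. miR-125b-3p read 5 to 13 counts in EPFR (median 9.5), 7 to 17 in EPFR lo (median 11.5) and 4 to 17 in filtered air (median 13.5), with edgeR log2 fold changes of -0.31 (SE 0.34) and 0.04 (SE 0.33) against filtered air. miR-125a-3p read 8 to 24 counts in EPFR (median 12.5), 6 to 23 in EPFR lo (median 14.5) and 12 to 30 in filtered air (median 17.5), with -0.33 (SE 0.32) in EPFR and -0.21 (SE 0.31) in EPFR lo. Over the 6 members other than miR-125b-5p, the smallest edgeR adjusted p was 0.991 in EPFR and 1.00 in EPFR lo.

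**Figure D2:**
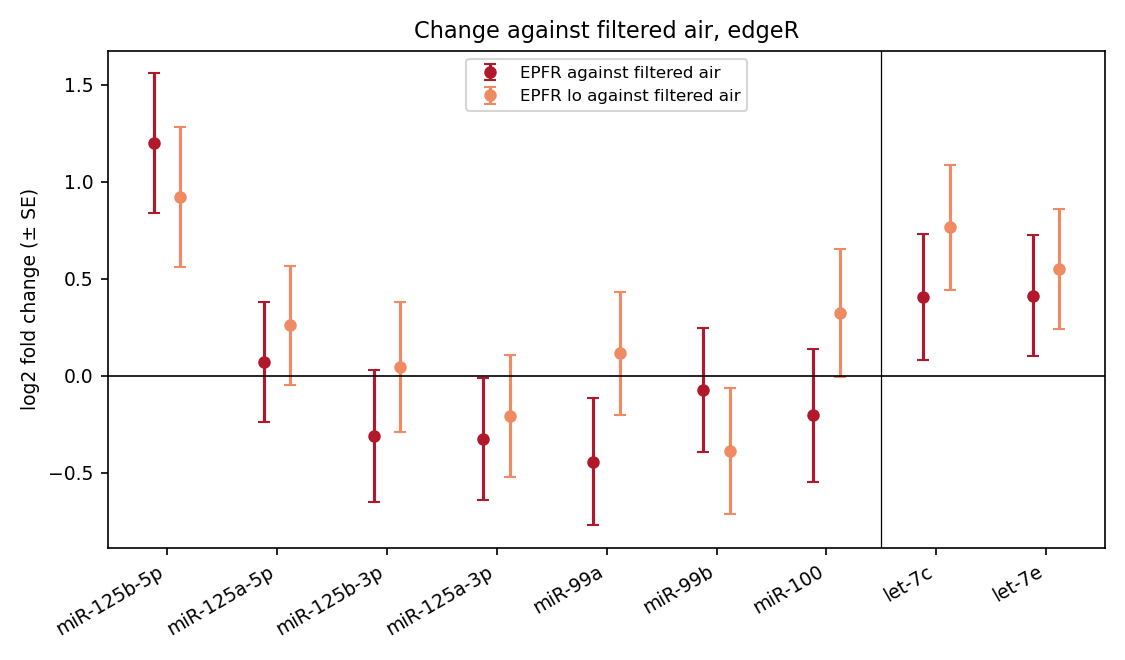
edgeR log2 fold change against filtered air with its SE for the 7 members and, right of the line, let-7c and let-7e; dark red is EPFR and orange EPFR lo, both against the same 8 filtered air mice. miR-125b-5p stands at 1.20 and 0.92, and the other 6 members lie between -0.44 and 0.32.

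The let-7 partners of the clusters and the seed relatives were listed as well, 7 in all. let-7a, the partner of miR-100 on chromosome 9, read 1 count in every mouse, so neither its change nor a ratio to it could be computed. Of the other 6 relatives, 0 were called in any comparison, and 1 had an unadjusted p under 0.05, let-7c in EPFR lo. let-7c read 15 to 75 counts in EPFR (median 25.5), 20 to 73 in EPFR lo (median 41) and 16 to 40 in filtered air (median 25.5). The seed relatives were below the limit, with means of 7.67 counts for miR-351, 27.5 for miR-670, 10.0 for miR-10a and 11.6 for miR-10b. The edgeR log2 fold change of let-7c was 0.41 (SE 0.32, adjusted p = 0.991) in EPFR and 0.77 (SE 0.32, adjusted p = 0.511) in EPFR lo, and that of let-7e was 0.41 (SE 0.31) and 0.55 (SE 0.31).

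Ratios within a mouse asked whether a member moved apart from its cluster partner. The log2 ratio of miR-125b-5p to let-7c ran from -0.16 to 2.22 in EPFR (mean 0.77 ± 0.87), from -0.96 to 1.57 in EPFR lo (mean 0.24 ± 0.71) and from -0.74 to 1.08 in filtered air (mean 0.33 ± 0.63; SD, n = 8 each). The groups overlapped, and the difference from filtered air was 0.44 (SE 0.38; exact permutation p = 0.267, adjusted over 15 tests 0.400) in EPFR and -0.09 (SE 0.34; exact permutation p = 0.795, adjusted 0.889) in EPFR lo. Within mice 1 to 4 the ratio differed by 0.80 in EPFR and 0.23 in EPFR lo, and within mice 5 to 8 by 0.08 and -0.41.

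Of the 15 ratio tests, 1 passed after adjustment. The log2 ratio of miR-99b to let-7e, neighbours on chromosome 17 with 94 bases between their hairpins, averaged -0.43 ± 0.41 in EPFR, -0.85 ± 0.44 in EPFR lo and 0.03 ± 0.47 in filtered air (SD, n = 8 each). It ran from -1.47 to -0.13 in EPFR lo and from -0.44 to 1.06 in filtered air, and 6 of 8 EPFR lo mice lay below every filtered air mouse. In EPFR lo the ratio was lower by -0.88 (SE 0.23; exact permutation p = 0.00140, adjusted over 15 tests 0.0210), and in EPFR by -0.46 (SE 0.22; exact permutation p = 0.0479, adjusted 0.188). It was lower in both blocks of EPFR lo mice, by -0.76 in mice 1 to 4 (exact permutation p = 0.0857) and by -0.99 in mice 5 to 8 (exact permutation p = 0.0286, the smallest that 4 against 4 mice allow). Neither miRNA passed on its own in edgeR, and both averaged below the background limit, at 14.6 and 20.2 counts. In the exact permutation test of scaled counts, not adjusted over miRNA, let-7e in EPFR lo differed from filtered air by 0.52 (p = 0.0348). By the same exact permutation test miR-99b differed by -0.35 (p = 0.233). On the deposited background-subtracted values the ratio differed by -1.52 but no longer passed (exact permutation p = 0.0235, adjusted 0.226). Without filtered air mouse 4 the adjusted exact permutation p was 0.0513.

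**Figure D3:**
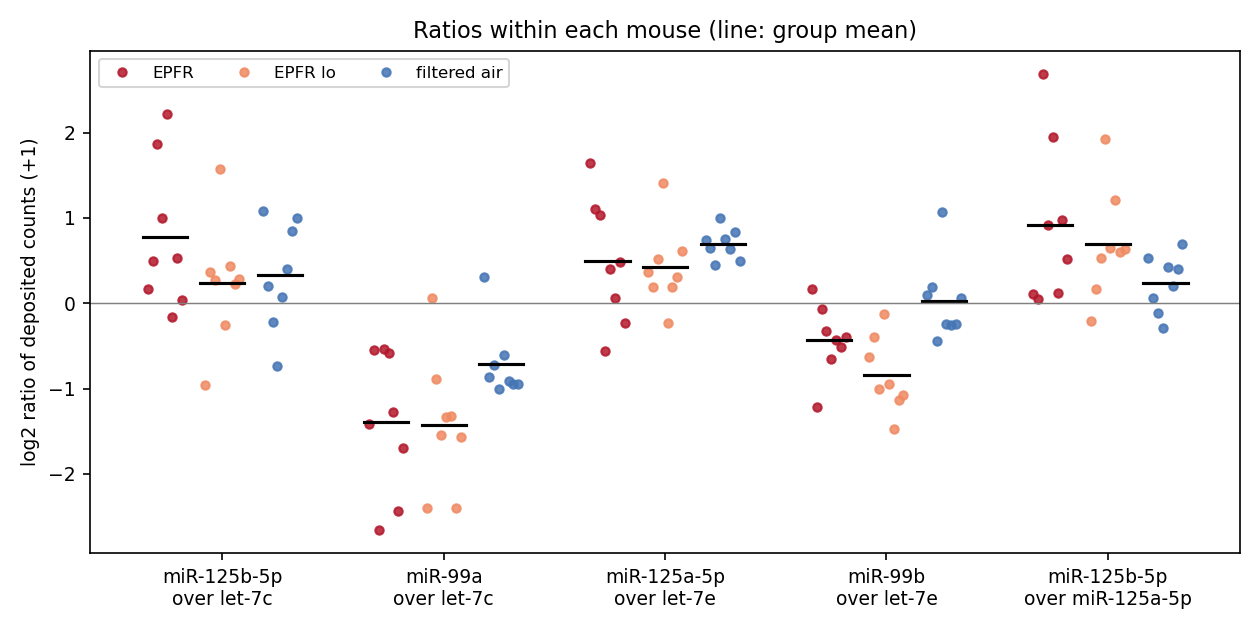
log2 ratio of 2 deposited counts within the same mouse, after adding 1 to each; points are mice, black lines group means, with EPFR, EPFR lo and filtered air from left to right in each set. For miR-99b over let-7e the EPFR lo mean is -0.85 and the filtered air mean 0.03, and for the other ratios the groups overlap widely.

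miR-99a over let-7c, the matching pair on chromosome 16, was lower by -0.69 (SE 0.33) in EPFR (exact permutation p = 0.0618) and by -0.71 (SE 0.32) in EPFR lo (exact permutation p = 0.0465), each 0.188 after adjustment over 15 tests. miR-125a-5p over let-7e differed by -0.21 (SE 0.27) in EPFR (exact permutation p = 0.461, adjusted 0.629) and by -0.27 (SE 0.18) in EPFR lo (exact permutation p = 0.152, adjusted 0.285). In EPFR it differed by 0.09 in mice 1 to 4 (exact permutation p = 0.886) and by -0.50 in mice 5 to 8 (exact permutation p = 0.0286, the smallest possible), so the blocks had opposite signs. Of the 4 ratios of a member to let-7 in EPFR lo, all 4 differences from filtered air were below 0, 1 of them past the threshold. They share the let-7 counts and the filtered air mice, so they are not separate observations.

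Across the 24 mice, with group means removed, miR-125b-5p and let-7c varied together (Pearson r = 0.595, permutation p = 0.00218; Spearman rho = 0.492, permutation p = 0.0152). This pair, the only one of a member and a partner that are both above background, was the 1 relation tested, and the points share each mouse's scaling factor. Without the 2 mice farthest from the median of miR-125b-5p, r was 0.409. Within mice 1 to 4 of all groups r was 0.733 (permutation p = 0.00405, n = 12), and within mice 5 to 8 it was -0.02 (permutation p = 0.955, n = 12). The relation was thus not seen in the second block, but the difference between blocks was not tested. The means removed were those of whole groups, so differences between blocks remain in each of these r.

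The miRNA whose levels over the 24 mice most resembled miR-125b-5p were miR-1 (Pearson r of log2 scaled counts 0.88), miR-21 (0.79) and miR-29a (0.76). Group means were not removed here, so these r include differences between groups and are not comparable with the r given above. They also share each mouse's scaling factor. Among 40 other miRNA above background the median r was 0.58, and let-7c came 16th with 0.62. Without EPFR mouse 3, miR-1 and miR-21 still led, with r of 0.80 and 0.78, while let-7c came 26th with 0.53, below the median of 0.59. miR-1 read 12 to 387 counts in EPFR (median 29.5), 13 to 61 in EPFR lo (median 43) and 14 to 31 in filtered air (median 18.5). miR-21, a miRNA of many tissues that is often raised in injury, read 20 to 147 counts in EPFR (median 62), 13 to 167 in EPFR lo (median 62) and 13 to 61 in filtered air (median 31). miR-29a, known for repressing collagen genes, read 23 to 121 counts in EPFR (median 59), 28 to 146 in EPFR lo (median 48.5) and 18 to 66 in filtered air (median 34).

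**Figure D4:**
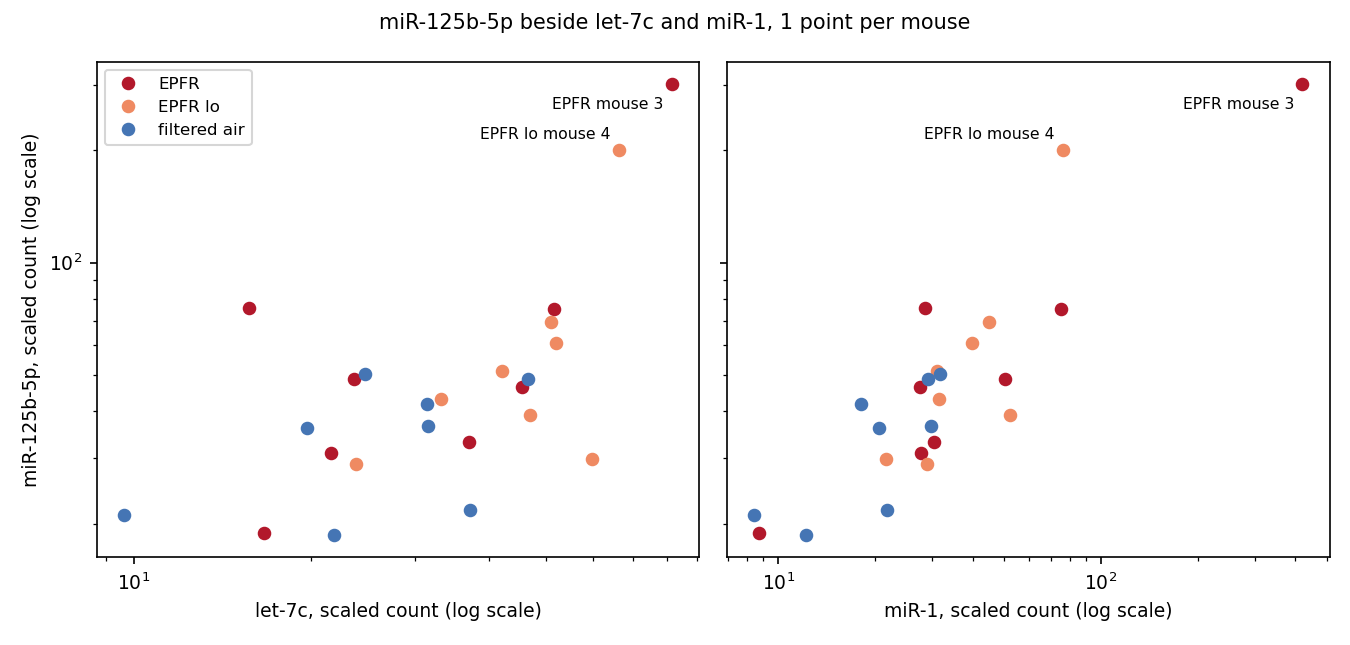
Scaled count of miR-125b-5p against that of let-7c (left) and of miR-1 (right) on log axes, 1 point per mouse, with colours for EPFR, EPFR lo and filtered air. EPFR mouse 3 is the highest point in both panels, and EPFR lo mouse 4 stands above mice of similar let-7c or miR-1.

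The size of the miR-125b-5p difference moved with the scaling, in part because some scalings shift all miRNA alike. The log2 fold change in EPFR was 1.23 with TMM scaling and 1.25 with DESeq2, but 0.43 when each mouse was scaled to its 100 highest miRNA and -0.38 when scaled to its ligation controls. It was 1.37 with limma on the deposited normalized counts (adjusted p = 0.448). In EPFR lo the first 4 values were 0.75, 0.75, -0.0048 and -0.26 in the same order. The median of all miRNA was -0.65 in EPFR and -0.66 in EPFR lo with the 100 highest miRNA, and -1.72 in EPFR and -0.99 in EPFR lo with ligation controls. Relative to those medians miR-125b-5p was higher in each case, but most of the miRNA behind them lie below background. In the main test the 41 miRNA above background had a median of 0.59 in EPFR and 0.60 in EPFR lo. This set thus also stood higher, beside 1.20 and 0.92 for miR-125b-5p. The set was chosen by mean count over all mice, particle-exposed mice included. A miRNA high only in those mice could therefore enter the set and raise its median. How far this choice raised the median was not tested, so the median does not show that detectable miRNA in general stood higher. Whether miR-125b-5p differed from that set was not tested. With ligation controls 537 miRNA were called lower in EPFR, 6 of the 7 members among them, miR-125b-5p being the exception. With the ligation level as a covariate the log2 fold change of miR-125b-5p was 0.61 in EPFR (edgeR adjusted p = 0.999) and 0.51 in EPFR lo (edgeR adjusted p = 0.998).

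**Figure D5:**
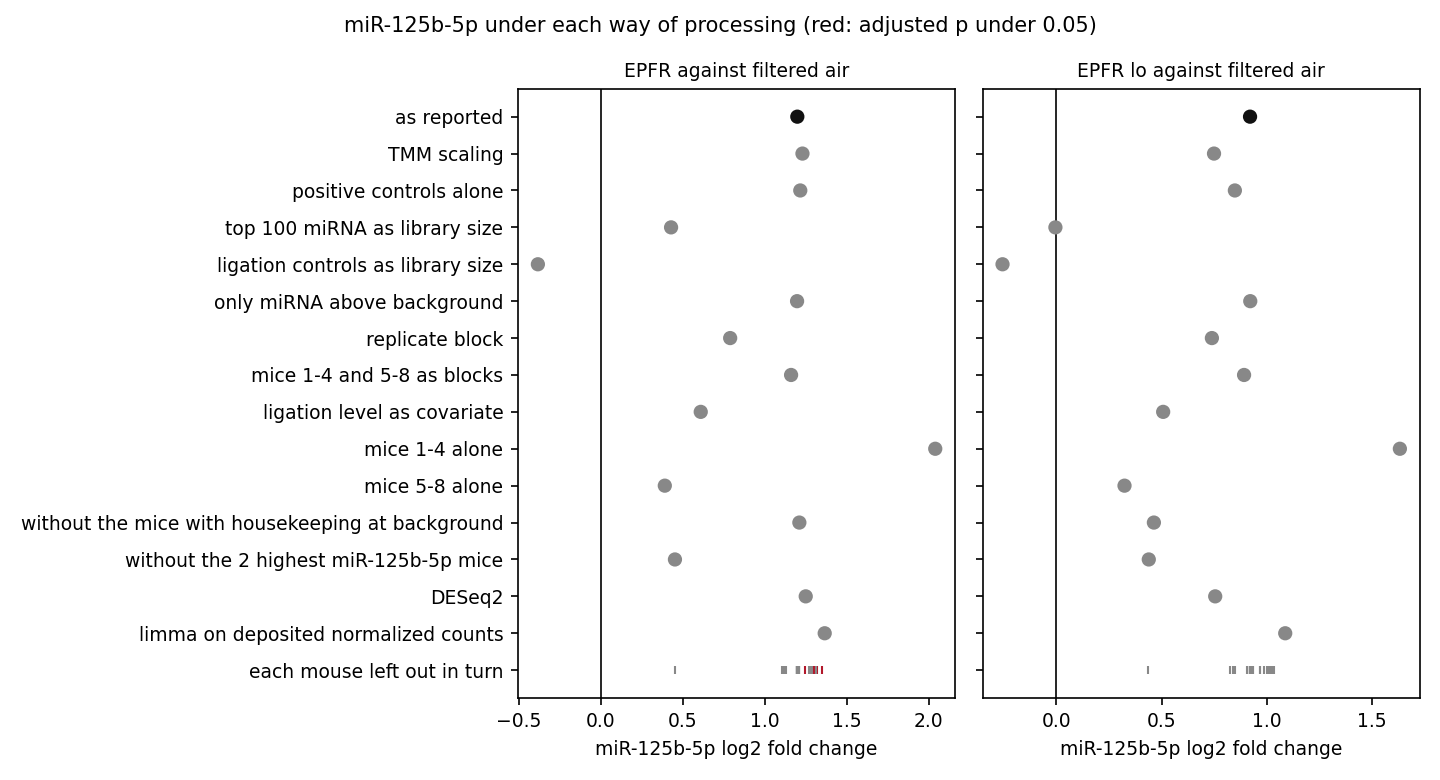
log2 fold change of miR-125b-5p against filtered air for EPFR (left) and EPFR lo (right) under each way of processing the counts; black is the value as reported, grey a value that did not pass and red 1 that did, and the ticks of the lowest line are fits with 1 mouse left out. In EPFR the values run from -0.38 with ligation controls to 2.04 in mice 1 to 4 alone.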

How the data were processed

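Plasma RNA of each mouse was assayed on its own with the NanoString nCounter mouse v1.5 miRNA panel, in which a tag is ligated to each miRNA and single color codes are counted without amplification. The authors deposited raw counts per probe, as read by the instrument. Their deposited normalized counts are a signal scale from nSolver, in which the negative controls' geometric mean is taken off and the rest is scaled to positive controls and then to Actb, B2m, Gapdh and Rpl19. That formula, with floors at 1, gave 13584 of 13584 mouse miRNA values within 2%. Deposited tables of the authors' own fold changes and p-values were not used.

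The main test was the quasi-likelihood test of edgeR 4.0.16 in R 4.3.3 on raw counts of all 24 mice. The model held group alone, and each library was scaled by the product of its positive-control and housekeeping factors. The housekeeping counts were multiplied by the positive-control factor first, so that factor cancels in the product. The scaling therefore rests on housekeeping mRNA alone. No low-count filter was applied, and p-values were adjusted by Benjamini-Hochberg over the 566 miRNA of each of the 3 comparisons. Scaled counts are raw counts times that product, without background subtraction. Exact permutation tests were two-sided, on log2 of scaled counts plus 1, or of raw counts plus 1 for ratios. Correlations used 100000 permutations. DESeq2 1.42.0 and limma 3.58.1 were alternatives. The fit and the exact test were checked on simulated data.

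The members, the relatives (let-7a, let-7c, let-7e, miR-351, miR-670, miR-10a and miR-10b), the marker lists and the tests were chosen with earlier results of these data known. Named are all members and relatives and, for miR-125b-5p, the 3 miRNA above background with the highest correlation; miR-133a was added after its values were seen. Leaving out the 2 highest mice together, the interaction of group with block, and the checks of the miR-99b ratio by mouse and block were also added after the values were seen.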

Additional observations from a re-analysis of the deposited data

Results flagged for a closer look

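In 27 sets of 8 mice (7 members, let-7c and let-7e in 3 groups), 2 held a mouse that stood apart from the rest of its group on the log2 scale, and chance alone marks about 1 in 20 sets. miR-125b-5p in EPFR lo mouse 4 had a scaled count of 200.6 (121 counts as deposited), with a gap to the next mouse of 0.552 of the group's range, above Dixon's critical value for 8 samples. miR-125b-3p in filtered air mouse 1 was low, at 2.409 scaled counts (4 counts as deposited), with a gap of 0.680 of the range, and that probe was below background in every mouse. EPFR mouse 3 was not marked for miR-125b-5p.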

How the results depend on the processing

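The count of members called was 0 in each comparison. With ligation controls as library size it was 6 in EPFR, where 94.9% of all miRNA were called, and 1 in EPFR lo, where 5.30% were called. With the top 100 miRNA it was 1 in EPFR lo, where 2.47% were called. The member called in EPFR lo was miR-99b both times, and the cause was not tested. Scaling to the top 100 miRNA shifted the median of all miRNA to -0.65 in EPFR and -0.66 in EPFR lo. With each mouse left out in turn the count ran from 0 to 1 in EPFR and was 0 in the other 2 comparisons. All other alternatives gave 0. In the fit of only the 41 miRNA above background, miR-125b-5p was the only member tested. Its edgeR adjusted p was 0.0652 in EPFR, where 12.2% of the 41 were called, and 0.158 in EPFR lo, where none was. With the block of the count table as a model term, its edgeR adjusted p was 0.0548 in EPFR and 0.318 in EPFR lo. In each of these, 1.24% of all miRNA were called.

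Among the log2 fold changes given above (all members against filtered air, and miR-125b-5p in EPFR against EPFR lo), direction turned mostly for members below background. With ligation controls they were -0.38 (miR-125b-5p) and -1.55 (miR-125a-5p) in EPFR. In EPFR lo they were -0.26 (miR-125b-5p), -0.89 (miR-125a-5p), -1.10 (miR-125b-3p), -1.07 (miR-99a) and -0.87 (miR-100). EPFR against EPFR lo gave -0.13 for miR-125b-5p. With the top 100 miRNA, miR-125a-5p was -0.47 in EPFR, and in EPFR lo miR-125b-5p was -0.0048, miR-125a-5p -0.54, miR-125b-3p -0.70, miR-99a -0.73 and miR-100 -0.53. With TMM and with DESeq2 in EPFR lo, miR-125b-3p was -0.065 and -0.060, and miR-99a -0.0048 and -0.0059. With limma on the deposited normalized counts in EPFR, miR-125b-3p was 0.040 and miR-99b 0.35. With ligation as a covariate miR-125a-5p was -0.062 in EPFR. In mice 1 to 4 alone miR-125a-3p was 0.15 in EPFR lo. In mice 5 to 8 alone, miR-125a-5p was -0.15 and miR-99b 0.061 in EPFR, and in EPFR lo miR-100 was -0.015, miR-125a-5p -0.029, miR-125b-3p -0.39 and miR-99a -0.14. Without the mice with housekeeping at background, miR-125b-3p was -0.038 and miR-99a -0.15 in EPFR lo. Without EPFR mouse 3 and EPFR lo mouse 4 together, miR-125a-5p was -0.049 in EPFR and miR-125b-3p -0.050 in EPFR lo, and miR-125b-5p was 0.45 and 0.44.

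With each mouse left out in turn, the ranges of those fold changes that crossed 0 were -0.049 to 0.16 for miR-125a-5p and -0.23 to 0.076 for miR-99b in EPFR, -0.15 to 0.14 for miR-125b-3p and -0.077 to 0.31 for miR-99a in EPFR lo, and -0.47 to 0.76 for miR-125b-5p in EPFR against EPFR lo. On deposited background-subtracted values, miR-125a-5p over let-7e differed by -0.19 in EPFR against EPFR lo, against 0.07 on raw counts.

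The mice were not treated as pairs by number. Deviations of same-numbered mice from their group means correlated at -0.25 to 0.61, above 0.1 in 3 to 6 of 8 pairs. The same number gave the closest match in 1 to 2 of 8 pairs per comparison. No test of pairing was made. With the replicate number as a block, miR-125b-5p was 0.79 in EPFR (edgeR adjusted p = 0.759) and 0.74 in EPFR lo (edgeR adjusted p = 0.646), and 0 members were called. Of the members only miR-125b-5p averaged above background. It passed the mouse's own limit in 5 of 8 EPFR, 5 of 8 EPFR lo and 4 of 8 filtered air mice. Its change, too, rests partly on values near background.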
